A study of Mus musculus with 12 samples.

Results

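The genes described here encode the peptide hormones of pulmonary neuroendocrine cells. The set was given by name and holds 10 genes: Calca, Calcb, Grp, Nmb, Nmu, Gal, Npy, Sst, Cartpt and Tac1. Of these, 9 were found by symbol among the 30399 genes of the table, and Grp was not analysed here. The series holds poly-A RNA sequencing of 5 normal mouse lungs and 7 mouse tumors; in this lung cancer model genes are cut and disabled with CRISPR/Cas9 delivered without a virus. The labels give tissue only: the targeted genes, strain, sex and age of the mice, and any treatment of the control lungs, are not given in the sources used here. The titles of tumors 3 and 4 share the number 159 and those of tumors 5, 6 and 7 share 201, so the 7 tumors carry 4 numbers. What the number stands for is not stated, and p-values measure only the spread between these samples.

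Pulmonary neuroendocrine cells are rare, often clustered airway epithelial cells that store amines and peptides in dense core vesicles and release them onto neighbouring epithelium, nerves, vessels and immune cells. Each peptide is cut from a longer precursor and acts on G protein-coupled receptors, and calcitonin gene-related peptide (CGRP) is the peptide most used to mark these cells in the mouse. Small cell lung carcinoma is thought to arise mostly from such cells and can keep, or gain, peptide hormone production.

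Values are normalized read counts, that is, reads per gene divided by a factor for each library. The normal lung libraries held 11126432 to 17032234 reads and the tumor libraries 13093843 to 24217633, so 3 reads were worth up to 4.85 normalized counts in the normal lungs and 3.57 in the tumors. These floors cover counting error only. All 7 neuroendocrine markers examined, Insm1, Chga, Chgb, Syp, Uchl1, Ncam1 and Ddc, were higher in tumor by the limma test given below. Of all genes tested, 31.4% were higher. The summed levels of these markers were 297 to 405 in normal lung and, in tumors, 35855 to 126898. All 7 markers of alveolar and airway epithelium were lower by that test, against 30.1% of all genes tested. Tumor 7 stood apart from the other tumors in content. Its summed level of 4 cardiac muscle markers was 32144, against at most 2040.5 in the other tumors and 76.2 to 3209 in normal lung. That of 4 leukocyte markers was 5102, within the 3435 to 6407 of normal lung, against at most 1313 in the other tumors. Because these are bulk samples, fewer cells of a type and less RNA per cell cannot be told apart.

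Of the 9 hormone genes in the table, the tumors made 1 message in quantity, that of Calca, and little of the rest. Grp has no value here, so this does not cover it. Calca was far above normal lung, Calcb and Nmb were modestly higher, and Npy was low but higher. Nmu, Tac1, Cartpt and Sst stayed at a few reads per library, and Gal did not pass the test. By limma across all 23674 genes tested, with Benjamini-Hochberg adjustment, 7 of the 8 hormone genes tested had an adjusted p under 0.05 in the direction of higher in tumor, where 31.4% of all genes tested did. None was lower by that test, against 30.1% of all genes, and Sst was too low to be tested. Testing needed a mean value of 1 over all samples, which Nmu, Tac1 and Cartpt reached only through the tumors. Their means in normal lung were 0, 0 and 0.97, so these genes could hardly be called lower. In 3 of the 8, Calca, Calcb and Nmb, every tumor lay above every normal lung, which held for 20.1% of all genes; in none did every tumor lie below, against 18.4% of all genes.

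**Figure D1:**
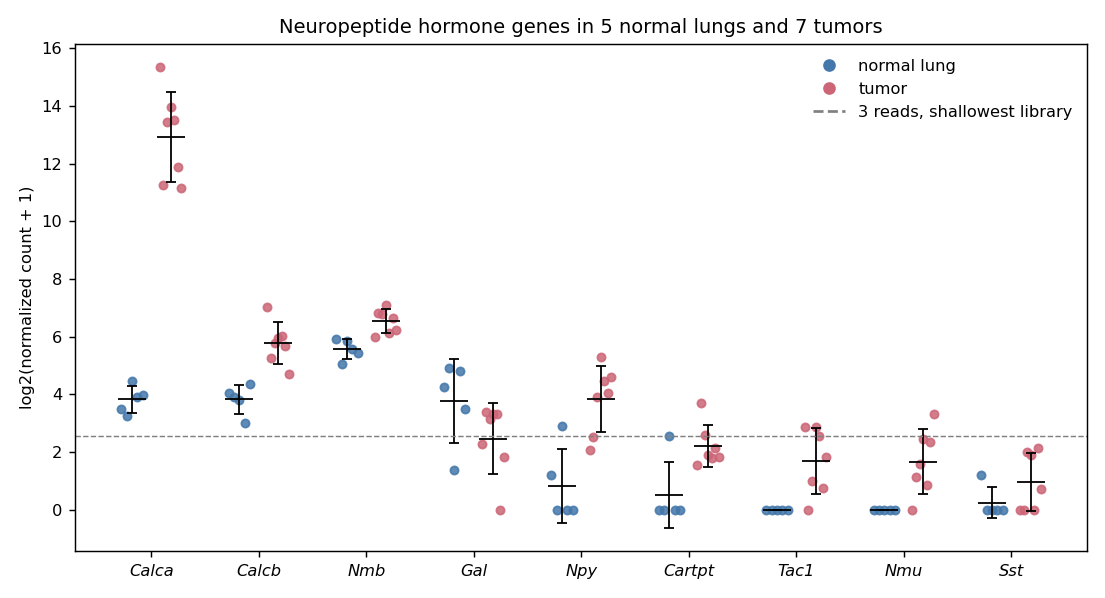
Level of each of the 9 hormone genes, as log2(normalized count + 1), in each normal lung and each tumor. Points are samples, black lines are means with SD, and the dashed line is the worth of 3 reads in the shallowest library. Calca stands above 11 on this scale in all 7 tumors, and Cartpt, Tac1, Nmu and Sst lie mostly near or under the dashed line.

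Calca (ENSMUSG00000030669) encodes calcitonin and, through an alternative last part of the transcript, alpha-CGRP; gene-level counts do not tell the 2 products apart. Calca stood at 10.3, 8.60, 20.996, 14.1 and 14.9 normalized counts in lungs 1 to 5 of the normal group, values that rest on 52 reads in all. Tumors 1 to 7 had 41863, 2450.5, 11035, 16139, 11682, 3811 and 2267. The groups were far apart: the lowest tumor, tumor 7, lay far above the highest normal lung, number 3. Means were 13.8 ± 4.80 (SD, n = 5) in normal lung and 12749 ± 13899 (SD, n = 7) in tumors, and the difference by limma was 9.11 on the log2 scale, with SE 0.63 and adjusted p = 5.44e-08. Tumors differed from one another by up to 18.5-fold. The 2 tumors numbered 159 were 1.46-fold apart and the 3 numbered 201 were 5.15-fold apart. Without tumor 1, the highest, the log2 fold change was 8.71.

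Calcitonin is also made by thyroid C cells, which lie beside the trachea, so thyroid markers were examined. Over 6 thyroid follicle markers the summed level was 159 to 258 in normal lung, at most 171 in tumors 1 to 6 and 486 in tumor 7. Thyroglobulin (Tg) reached 364 in tumor 7, was 0.991 to 35.7 in the other tumors and 34.5 to 64.6 in normal lung, and Iyd was at 0 in 5 of the tumors. Tumor 7, with the most Tg, had the least Calca, and tumor 1, with the most Calca, had a Tg value of 1.27. These markers are of follicle cells, and no marker particular to C cells was examined. The part of thyroid C cells in Calca was not tested.

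By a fixed rule, the genes whose levels most resembled Calca over the 7 tumors were Usp43 and Gpr162, with a Pearson r of 0.99 each on log2 values, the highest among 16517 genes. Usp43 ran from 173 normalized counts in tumor 2 to 1093 in tumor 1, and Gpr162 from 1040.0 in tumor 2 to 1590 in tumor 1. With 7 tumors that share title numbers, and so many genes searched, these likenesses are a description only.

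**Figure D2:**
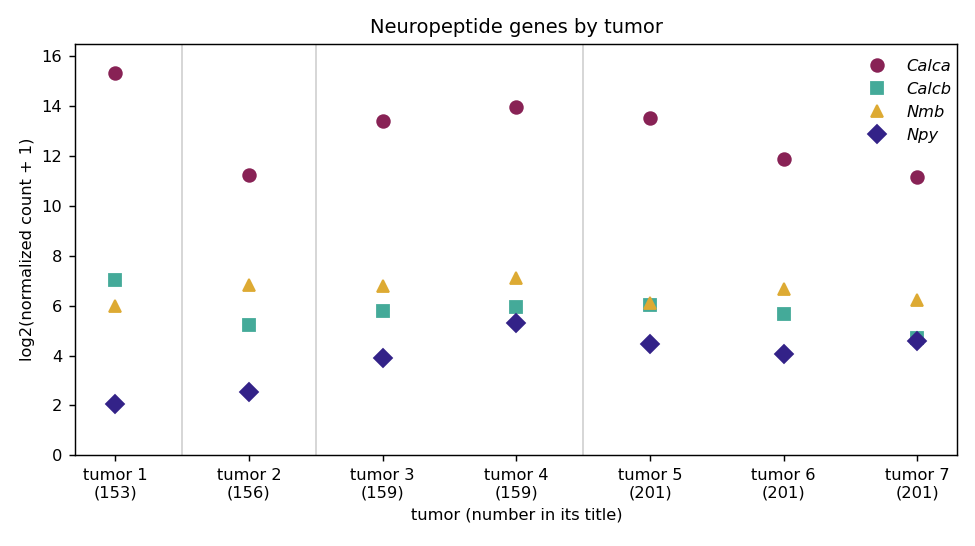
Levels of Calca, Calcb, Nmb and Npy as log2(normalized count + 1) in each tumor, with the number in its title; vertical lines separate the numbers, and levels are not scaled by gene length. Calca and Calcb are highest in tumor 1 and lowest in tumor 7, while Nmb varies by 2.17-fold.

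Calcb (ENSMUSG00000030666) encodes beta-CGRP, the product of a neighbouring duplicate of Calca. Its CGRP-coding part is close to that of Calca, which bears on how far reads of the pair can be told apart. The windows below are 1 read length (150 bases) of the coding sequence of each gene, from GENCODE release M21 transcripts, with the bases that differ between them in capitals.
Calca, coding bases 197 to 346: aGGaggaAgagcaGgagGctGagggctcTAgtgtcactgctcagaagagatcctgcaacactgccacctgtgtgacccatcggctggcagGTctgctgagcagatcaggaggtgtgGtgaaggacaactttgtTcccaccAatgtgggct
Calcb, coding bases 200 to 349: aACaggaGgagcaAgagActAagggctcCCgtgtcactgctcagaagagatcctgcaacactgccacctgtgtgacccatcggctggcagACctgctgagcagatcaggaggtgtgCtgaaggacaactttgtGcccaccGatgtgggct
The 2 windows differ at 13 of 150 bases (91.3% identity). The longest identical run between any annotated transcripts of the pair was 61 bases, and no stretch of 150 bases was identical, so a full-length read without errors differs between them.

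Normal lungs 1 to 5 had 15.5, 14.0, 12.9, 7.05 and 19.5 normalized counts of Calcb. Tumors 1 to 7 had 130.4, 36.9, 54.5, 61.1, 63.9, 50.5 and 25.0. Every tumor lay above every normal lung, tumor 7 by the smallest margin. Means were 13.8 ± 4.53 (SD, n = 5) and 60.3 ± 33.8 (SD, n = 7), a 4.37-fold ratio, with a log2 fold change of 1.95 (SE 0.40, limma adjusted p = 8.25e-04). From high to low, the tumors stood in the order 1, 5, 4, 3, 6, 2, 7 for Calcb and 1, 4, 5, 3, 6, 2, 7 for Calca. The order differs only in tumors 4 and 5. Whether Calca reads placed on Calcb take part in this increase was not tested.

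Nmb (ENSMUSG00000025723) encodes neuromedin B, a bombesin-like peptide and the relative of gastrin-releasing peptide. It was the hormone with the most reads in normal lung, where lungs 1 to 5 had 59.3, 32.3, 56.5, 46.6 and 42.5 normalized counts. Tumors 1 to 7 had 63.3, 112, 109, 137, 68.8, 100.4 and 73.7. The lowest tumor lay just above the highest normal lung, and the means, 47.4 ± 10.9 (SD, n = 5) and 94.9 ± 27.3 (SD, n = 7), gave a log2 fold change of 0.97 (SE 0.27, limma adjusted p = 0.0076). Unlike Calca, Nmb was lowest in tumor 1 and spread only 2.17-fold over the tumors. Of the 793 annotated exon bases of Nmb, 163 also belong to Sec11a on the same strand, so its count is uncertain.

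Npy (ENSMUSG00000029819) encodes neuropeptide Y, best known from sympathetic nerves and the hypothalamus. Normal lungs 1 and 3 had 1.29 and 6.46 normalized counts and the other 3 had 0, which makes 5 reads in all. Tumors 1 to 7 had 3.17, 4.77, 13.9, 38.6, 21.03, 15.5 and 23.1. Tumors 1 and 2 fell inside the normal range, and the 5 tumors numbered 159 or 201 lay above it. By limma Npy was higher by 3.02 on the log2 scale, with SE 0.66 and adjusted p = 0.00134. Tumor 1, with the highest Calca, had the lowest Npy of the tumors.

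Nmu, Tac1, Cartpt and Sst rested on so few reads that their levels cannot be ranked. Nmu (ENSMUSG00000029236), which encodes neuromedin U, a peptide that activates innate lymphoid cells, had 0 reads of 71052664 in normal lung and 29 of 138851773 in tumors, with 0, 1, 2, 5, 1, 6 and 14 reads in tumors 1 to 7. It shares 55 of 828 exon bases with 4930432L08Rik on the opposite strand. Tac1 (ENSMUSG00000061762), the precursor of substance P and neurokinin A, had 0 reads in normal lung and 29 in tumors, with 10, 0, 1, 7, 6, 1 and 4 in tumors 1 to 7. Cartpt (ENSMUSG00000021647), the CART peptide precursor, had 3 reads in normal lung, all in lung 3, and 33 in tumors, of which 10 were in tumor 2. Each of the 3 genes passed the test, with limma adjusted p values of 0.00973 for Nmu, 0.00959 for Tac1 and 0.012 for Cartpt, and in each the groups overlapped. Among all tested genes with mean values of 1 to 10, 26.9% were higher and 19.7% lower in tumor by the same test. Mean tumor values, 3.07 for Nmu and 3.10 for Tac1, lay under the worth of 3 reads in the shallowest tumor library, so no fold is given. With edgeR on recovered reads of 11 samples and all genes of mean 1 or more, Cartpt did not pass (adjusted p = 0.0833). Tumor libraries held more reads in all than normal lungs, and the part of depth in these detections was not tested. Sst (ENSMUSG00000004366), which encodes somatostatin, a peptide that restrains secretion, had 1 read in normal lung and 12 in tumors, spread over tumors 3, 4, 6 and 7.

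Gal (ENSMUSG00000024907) encodes galanin, a peptide of nerves and endocrine cells. Normal lungs 1 to 5 had 18.1, 29.0, 1.62, 26.8 and 10.3 normalized counts, and tumors 1 to 7 had 3.80, 9.53, 7.93, 8.98, 8.90, 0 and 2.56. Normal lung 3, the shallowest library, fell among the tumors, and every tumor was under the other 4 lungs. At -1.30 log2 units (SE 0.72) Gal did not pass the limma test, with an adjusted p of 0.129, and it did pass without normal lung 3 (-1.90, adjusted p = 0.0235).

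Nerve fibres in the sampled tissue also hold several of these peptides, so markers of peripheral neurons were examined beside them. Of the 7 tested, 4 were higher in tumor (Prph, Th, Chat and Avil), against 31.4% of all genes tested. None was lower by the test, against 30.1% of all genes. Th and Chat, with a normal mean under 1, reached the testing filter only through the tumors. The summed level of the 7 was 15.5 to 61.9 in normal lung and 386 to 2288 in tumors. Prph had 4.85 to 23.2 normalized counts in normal lung and 52.4 to 1574 in tumors. Th had 0 in every normal lung and 27.9 to 887 in tumors. In tumors Dbh, the noradrenaline enzyme of sympathetic neurons, was at most 7.04, and Scn10a, a sodium channel of sensory neurons, at most 14.7, and neither passed the test. The part of nerve fibres in Npy and Tac1 was not tested.

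Scaled by transcript length, the make-up of the hormone message was turned over in the tumors. In normal lung Nmb held 55.0% ± 7.23 (SD, n = 5) of the summed level per kilobase of the 9 genes, Gal 18.6% ± 13.1, Calcb 12.1% ± 4.65 and Calca 11.4% ± 3.61. In tumors Calca held 95.9% ± 3.16 (SD, n = 7), with 91.5% in tumor 2 as the lowest and 99.4% in tumor 1 as the highest share, and Nmb held 2.46% ± 2.11. The groups did not overlap for either gene. Summed per kilobase, the 9 genes came to 106 to 138 in normal lung, against 2470.5 to 42358 for the tumors.

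**Figure D3:**
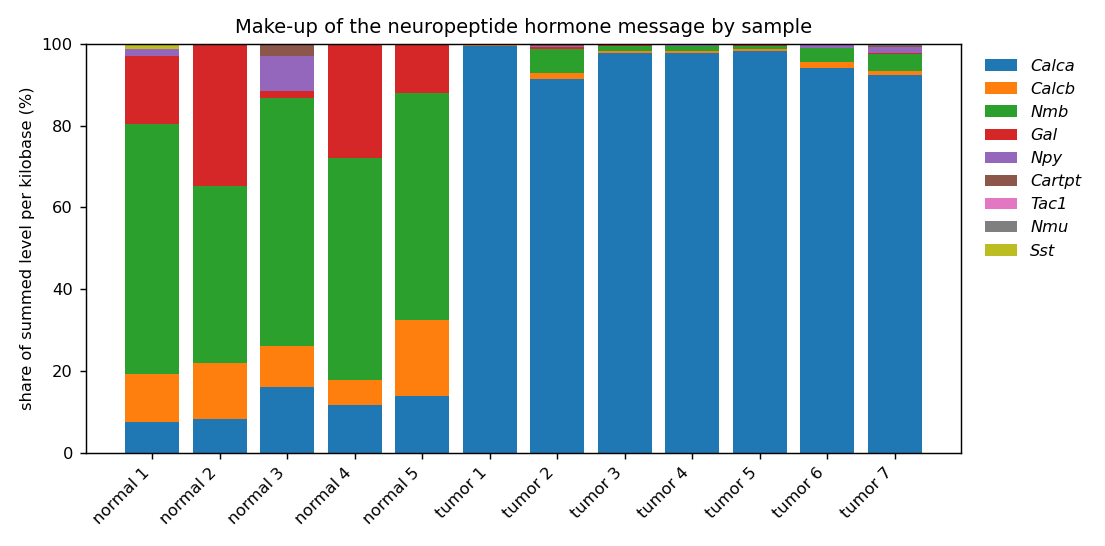
Share of each hormone gene in the summed level per kilobase of transcript of the 9 genes, in percent, for each sample. Nmb is the largest share in all 5 normal lungs and Calca in all 7 tumors, where it holds 91.5% to 99.4%.

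Promoters were compared because several of these genes are textbook targets of cyclic AMP signalling, through the element TGACGTCA or its short form TGACG, to which CREB binds. RefSeq windows (GRCm38.p6) of 250 bases before to 50 after the start site were matched for 8 of the 10 genes, without Calcb and Grp. The 150 bases before the start site are shown for the gene that carries the tumor signal and for the 2 genes with the full element, 5′ to 3′ on the gene's strand, with matches in capitals.
Calca, chr7:114636358-114636507, minus strand: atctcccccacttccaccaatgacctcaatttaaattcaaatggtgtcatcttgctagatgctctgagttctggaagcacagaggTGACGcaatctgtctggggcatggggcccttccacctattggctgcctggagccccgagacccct
Sst, chr16:23890845-23890994, minus strand: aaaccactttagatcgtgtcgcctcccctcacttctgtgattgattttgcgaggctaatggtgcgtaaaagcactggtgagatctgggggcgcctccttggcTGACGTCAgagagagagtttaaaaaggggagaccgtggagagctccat
Cartpt, chr13:99900684-99900833, minus strand: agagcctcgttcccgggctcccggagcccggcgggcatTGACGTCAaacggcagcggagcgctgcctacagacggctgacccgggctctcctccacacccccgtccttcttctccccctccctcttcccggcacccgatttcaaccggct
The full element TGACGTCA was in the windows of Sst and Cartpt, first base at -48 and -112 from the start site, and in 1.79% of all 32851 windows. The short form TGACG, which lies within the full element and was searched on both strands, was in the windows of Calca (-65), Nmu, Gal, Sst, Cartpt and Tac1, and in 20.8% of all windows. Both genes with the full element were at a few reads per library. A match describes letters, not binding.

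Receptors were followed from a list of 25 genes, of which 22 were in the table and 20 were tested. Nmur2, Npy6r and Sstr2 were not analysed here. By limma 8 were higher and 5 lower in tumor, against 31.4% and 30.1% of all genes, with a median log2 fold change of 0.71 against 0.04 over all genes tested. In 3 all tumors lay above all normal lungs, against 20.1% of all genes, and in 5 below, against 18.4%. The lower genes were Calcrl, Calcr, Ramp1, Ramp2 and Sstr4, and receptors of neuromedin B, galanin, neuropeptide Y and somatostatin were among the higher ones. Of the higher genes, Npy5r, Galr1 and Sstr5 had a normal mean under 1 and reached the testing filter only through the tumors. They could hardly be called lower.

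CGRP signals through Calcrl, which needs a small partner protein: Ramp1 makes it a CGRP receptor, and Ramp2 or Ramp3 an adrenomedullin receptor. Calcrl had 13743 to 17701 normalized counts in normal lung and 36.7 to 263 in tumors, a limma log2 fold change of -7.14, with SE 0.44 and adjusted p = 1.96e-08. Ramp2 fell by 5.95 (SE 0.58) and Ramp1 by 3.44 (SE 0.46), with all tumors under all normal lungs. Calcr, the calcitonin receptor, had 38.0 ± 17.7 (SD, n = 5) normalized counts in normal lung and 4.68 ± 2.95 (SD, n = 7) in tumors, and fell by 2.81 (SE 0.50). Calcrl and Ramp2 are endothelial genes in lung. All 4 endothelial markers were lower in tumor by limma, against 30.1% of all genes tested. Their summed levels were 39730.1 to 52537 in normal lung and, in tumors, 2143 to 7163. The part of endothelial content in the change of Calcrl and Ramp2 was not tested.

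Ramp3 went the other way. In normal lungs 1 to 5 it had 90.3, 116.1, 234, 192 and 162 normalized counts, against 112, 772, 2026, 1716, 803, 1432 and 624 in tumors 1 to 7. Tumor 1 lay within the normal range and the other 6 tumors above it, and Ramp3 was higher by 2.41 in limma, with SE 0.59 and adjusted p = 0.00288. Of its 1380.0 exon bases, 101 overlap Gm11978 on the opposite strand, and use of strand in counting is not stated.

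The neuromedin B receptor Nmbr was higher together with its ligand, with no overlap (log2 fold change 2.57, SE 0.47, limma adjusted p = 3.87e-04). Nmbr had 1.29 to 5.75 normalized counts in normal lung, on 15 reads in all, and 12.6 to 60.7 in tumors. Among neuropeptide Y receptors, Npy5r had 0 reads in every normal lung and 10.2 to 68.8 normalized counts in tumors (limma adjusted p = 1.29e-06). Its tumor mean of 39.7 was at least 8.19-fold higher, taking normal lung at the worth of 3 reads in the shallowest normal library. Npy1r had 124 to 181 normalized counts in normal lung and 205 as the median in tumors, with tumor 1 at 1611 and tumor 2 at 72.7. A difference of 0.81 log2 units (SE 0.56) gave an adjusted p of 0.227 in limma and did not pass, although it did in edgeR on recovered reads (1.69, adjusted p = 0.0469). Npy4r did not pass the test (-0.62, adjusted p = 0.311), and Npy2r had 5 reads in tumors and 0 in normal lung.

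Of the 3 galanin receptors, Galr1 and Galr2 were higher, while galanin itself was not. Galr2 rose from 10.96 ± 8.13 (SD, n = 5) to 302 ± 147 (SD, n = 7) normalized counts, with all tumors above all normal lungs (log2 fold change 5.07, SE 0.67, limma adjusted p = 2.14e-05). Galr1 had 2 reads in normal lung, and 1.90, 0, 530.4, 264, 28.3, 336 and 57.6 normalized counts in tumors 1 to 7. It was thus near absent in tumors 1 and 2 and present in the tumors numbered 159 and 201 (5.05, SE 1.41, adjusted p = 0.00704). Galr3, which shares 363 of 1245 exon bases with Gcat, did not pass the test (0.76, adjusted p = 0.15).

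The somatostatin receptors analysed, without Sstr2, were split. Sstr4 had a log2 fold change of -4.38 by limma, with SE 0.66 and adjusted p = 7.21e-05, and went from 80.4 to 147 normalized counts in normal lung to 0 to 28.2 in tumors. Sstr5 had 2 reads in normal lung and 50.6, 1.19, 96.2, 73.6, 10.5, 4.04 and 9.61 normalized counts in tumors 1 to 7 (3.80, SE 0.88, adjusted p = 0.00213). Sstr1 (1.63) and Sstr3 (1.49) were also called higher, with groups that overlapped. Sstr1 (limma adjusted p = 0.034) lost its call in 10 of 23 alternatives, among them the title number as a block (adjusted p = 0.0562) and leaving out normal lung 3, 4 or 5 or tumor 1, 3, 4 or 6. For the tachykinins, Tacr1, the substance P receptor, had 21.2 to 66.2 normalized counts in normal lung, and the tumors ran from 4.77 to 55.7. The difference of -1.25 log2 units had an adjusted p of 0.0972 and missed the threshold. It passed without tumor 1 (-1.50, adjusted p = 0.0478) and without both trachea-titled tumors (-1.80, adjusted p = 0.0169). Tacr2 (-0.97, adjusted p = 0.214) and Nmur1, a neuromedin U receptor (-0.67, adjusted p = 0.252), did not pass limma either. Without normal lung 3 Tacr2 did pass (-1.54, limma adjusted p = 0.0358). Tacr3 had 5 reads in all.

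**Figure D4:**
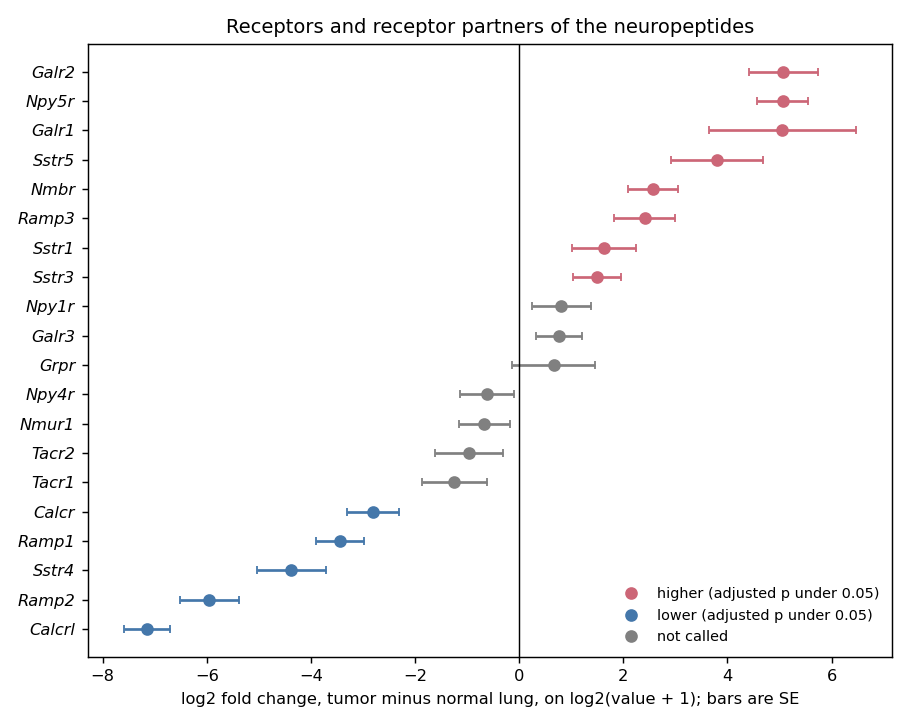
Log2 fold change of tumor minus normal lung on log2(value + 1) for the 20 receptor and partner genes tested, with bars for the standard error and colours for the call at an adjusted p under 0.05. Galr2, Npy5r and Galr1 lie near 5 and Calcrl at -7.14, while 7 genes in grey were not called.

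Close relatives of the 9 hormones were examined next, with 9 of 11 in the table and 5 tested, of which 3 were higher and 1 lower in tumor, against 31.4% and 30.1% of all genes tested. Cort encodes cortistatin, which shares receptors with somatostatin, and it rose where somatostatin stayed at a few reads. Cort had 1.29 to 4.598 normalized counts in normal lung, on 9 reads in all. Tumors 1 to 7 had 40.5, 159.6, 159, 226, 92.2, 95.7 and 51.2, with no overlap (log2 fold change 5.07, SE 0.46, limma adjusted p = 6.43e-07). Spx, which encodes spexin, a peptide that acts on galanin receptors, rose from 25.3 ± 10.3 (SD, n = 5) to 112 ± 61.1 (SD, n = 7), by 2.03 (SE 0.38). Tac4, a tachykinin relative of Tac1, was higher by 1.32 (SE 0.41, adjusted p = 0.0133) with groups that overlapped. Ppy, which encodes pancreatic polypeptide of the neuropeptide Y family, had 16 reads in normal lung and 0 in all tumors, and without normal lung 5 it was too low to be tested.

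Among 41 other peptide hormone genes, 38 were in the table and 32 were tested, of which 20 were higher and 4 lower in tumor, against 31.4% and 30.1% of all genes tested, with a median log2 fold change of 1.60. Ucn, Gast, Cck, Sct, Avp, Hcrt, Pmch, Prok2 and Rln1 reached the testing filter only through the tumors, with a normal mean under 1. These higher genes could hardly be called lower. Vip and Npw, called lower, reached it only through normal lung, with a tumor mean under 1. Many genes of the list are at low levels: with genes of mean 10 or more, 16 were tested and 10 were higher, against 32.9% of all genes at that level. The largest increases were in Cck, Pdyn, Nppb and Trh. Cck, cholecystokinin, had 0 reads in every normal lung and 453, 88.2, 275, 296, 47.7, 239 and 130.01 normalized counts in tumors 1 to 7 (limma adjusted p = 4.21e-08). Its tumor mean of 218 was at least 45.1-fold higher, with normal lung taken at the same worth of 3 reads. Pdyn, the dynorphin precursor, had 0 to 3.23 normalized counts in normal lung and 115, 3.57, 1033, 702, 877, 1664 and 396 in tumors. Tumor 2 was barely above normal lung in Pdyn and the other 6 were far above (7.21, SE 1.21, adjusted p = 1.76e-04). Trh, thyrotropin-releasing hormone, rose from 1.47 ± 0.917 to 77.0 ± 44.8 (4.83, SE 0.52). The normal lungs together held 5 reads of Pdyn and 6 of Trh.

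Nppb, a natriuretic peptide also made by heart muscle, rose by 5.21 (SE 0.74, limma adjusted p = 4.15e-05), with 15 reads in all in normal lung. Tumor 7, with the highest cardiac markers, had the highest Nppb value, 307 normalized counts, and the other tumors had 42.9 to 252. Tumor 5 had the 252, with 4.04 for the cardiac marker Myh6, and tumor 6 had 78.8, with 960 for Myh6. The part of heart muscle in Nppb was not tested. Npw, neuropeptide W, had a log2 fold change of -7.65, with SE 0.41 and adjusted p = 5.29e-09, and went from 248.7 to 607 normalized counts in normal lung to at most 3 reads in each tumor. Edn1, endothelin-1, a product of endothelium and airway epithelium, fell by 5.02 (SE 0.49). Vip, a peptide of airway nerves, had 4.85 to 8.05 normalized counts in normal lung and 0 to 2.56 in tumors (adjusted p = 4.30e-04). Penk, the enkephalin precursor, was called lower (-2.13, SE 0.85, adjusted p = 0.0431), a call lost in 17 of 23 alternatives; it shares 233 of 1634 exon bases with A830012C17Rik on the opposite strand.

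**Figure D5:**
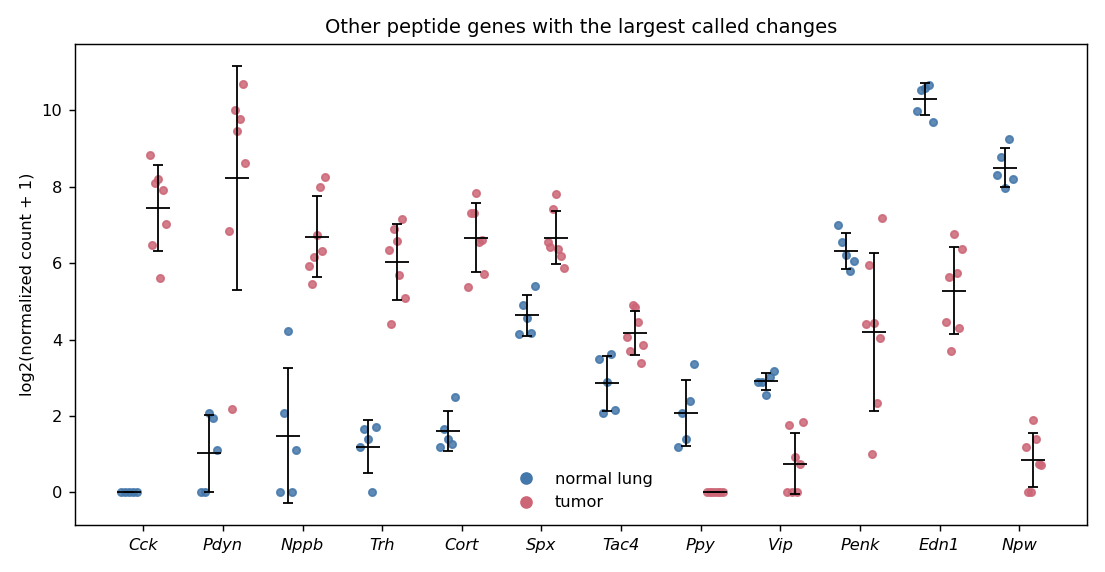
Level of the other peptide genes with the largest called changes, as log2(normalized count + 1), in each normal lung and tumor. Points are samples and black lines are means with SD. Cck is at 0 in all normal lungs, Ppy at 0 in all tumors, and Penk overlaps between the groups.

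The titles also allow a comparison of 2 tumors with the Spanish word for trachea, tumors 1 and 7, with 4 that have the word for lung. None of the 9 hormone genes passed the limma test, where 0% of 23282 genes did. An unadjusted p under 0.05 was found for 0 of the 9 and for 8.96% of all genes. For Calca the difference was 0.05 log2 units (SE 1.10, adjusted p = 0.992). The 2 trachea-titled tumors held both the highest Calca value, 41863, and the lowest, 2267, and the difference was -2.06 without tumor 1 and 2.15 without tumor 7 (limma adjusted p = 0.21 and 0.31). In those 2 fits the lone trachea-titled tumor is assumed to vary like the others. Without tumor 7, 290 genes passed the test, none of them a hormone gene, and without any other single tumor 0 did.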

How the data were processed

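Total RNA was enriched for poly-A transcripts and read as paired ends of 150 bases, per the labels' protocols. The submitters' processing notes name featureCounts, DESeq2 and GRCm39, without versions; the aligner, the annotation and use of strand are not given in the sources used here. The deposited values are a normalized read count signal: in every column 100% of values were whole multiples of one step (tolerance 0.001 reads), which gave the reads per gene. Tumor 3, with a step of 0.991 that lies close to 1, was left out of the count fits, so these used 11 samples. Symbols came from GENCODE release M21 (417 genes had none). The 31 pairs of libraries within groups all differed by more than counting error, with a chi-square over its degrees of freedom of at least 18.4.

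For genes whose mean value reached 1, log2(value + 1) was compared with limma 3.58.1 (lmFit, eBayes with a mean-variance trend, R 4.3.3) and Benjamini-Hochberg adjustment over all genes tested, called at an adjusted p under 0.05; fold changes on this scale understate changes of low genes. The fit was also run on simulated counts, with the same spread setting in both groups and without genes of low level in normal lung. That run does not cover the low hormone genes, or tumors that share a title number. Alternatives used pseudocount 0.1, other filters and scalings, title numbers, left-out samples, edgeR 4.0.16 and DESeq2 1.42.0. Levels per kilobase used the longest coding transcript. Named are all hormone genes, receptors of called hormones, up to 4 called genes per direction and list, and the 2 genes most like Calca; other genes named, such as Sstr1, Sstr3 and Galr3, were chosen after their values were seen. The hormone genes and the lists were chosen with earlier results of these data known. Some genes of the marker lists are not reported here.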

Additional observations from a re-analysis of the deposited data

Results flagged for a closer look

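Within each group, the highest or lowest sample was set against the others for the genes named by rule (71 group results), using the 95% limit of Dixon's ratio on log2(value + 1). Chance passes this limit in about 1 in 20 groups without ties, and it was passed 6 times. In 4 of these a single normal lung had a read or a few where the others had 0, which by itself puts the ratio at its maximum, so the number of cases cannot be read against chance: Sst in lung 1 (1.20), Cartpt in lung 3 (2.55), Galr1 in lung 5 (1.72) and Sstr5 in lung 2 (1.66). Ramp3 was lowest in tumor 1 at 6.82, against 9.29 to 10.99 in the other tumors. Tacr1 was lowest in normal lung 4 at 4.47, against 5.72 to 6.07 in the other lungs.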

How the results depend on the processing

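No fold change of a tested hormone gene, or of a tested receptor, relative or other peptide gene named by rule, reversed under any alternative run. Fold changes of other named genes, apart from Sstr1, were not compared across the alternatives. The count of 7 hormone genes higher in tumor became 4 of 5 tested with a mean of at least 10 and 3 of 3 tested in edgeR with its default filter, which test fewer genes. It was 6 of 8 in edgeR with the filter used in limma, an alternative chosen after seeing the data. The 7 hormone genes called in limma kept an adjusted p under 0.05 in all other fits that tested them, except Cartpt, which lost it in DESeq2 (0.0935) and in that edgeR fit (0.0833). Leaving out each sample gave 7 to 7 higher and 0 to 1 lower hormone genes. The same fits gave 0 to 1 lower relatives, which became 0 with a mean of at least 10 and 0 in edgeR with its default filter (1 in limma as reported). Without normal lung 3 Gal was the 1 lower hormone gene. Other peptide hormones higher in tumor (20) became 10 with a mean of at least 10 and 11 in edgeR with its default filter, where 2 were lower in place of 4. Equal column totals moved the median log2 fold change of all genes from 0.04 to 0.24, and DESeq2 to 0.18. Nmb was higher by 1.17 under equal totals. Penk was called lower in limma and not in edgeR (-0.79, adjusted p = 0.35). Shares with coding length in place of transcript length moved by less than 1 SD. No paired analysis was possible because the labels give the groups no shared replicate numbers. Treating the title number as a correlated block kept 7 hormone genes higher and left 7 of 8 receptors higher, without Sstr1. The few reads of Nmu, Tac1, Cartpt and Sst limit any statement on their levels, and their log2 changes depend on the pseudocount (1.67 with 1 and 4.09 with 0.1 for Nmu).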
